A study of Mus musculus with 25 samples.

Results

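Sorted CD4 T cells of miR-150 knock-out mice were compared with those of miR-150 knock-in mice on day 7 of experimental autoimmune encephalomyelitis (EAE), which models multiple sclerosis by immunization. The 8 libraries, 4 from knock-out (KO) and 4 from knock-in (KI) cells, were chosen from 25 by their titles, which give genotype and stage. All genes of the table entered the comparison, and 14703 of 46078 had enough counts to be tested. The remaining libraries were KO and KI cells of naive mice (4 each), wild-type (WT) cells at day 7 (5) and naive WT cells (4). All mice were of the strain C57BL/6NTac, and all groups at day 7 share the EAE induction. The sources used here do not say how either allele was made, whether the KI allele adds copies of miR-150 or in which cells it acts. Nor do they tell whether each library is a mouse of its own, and the p-values therefore cover the spread of these libraries, which may be technical.

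MicroRNAs are short RNAs that guide Argonaute proteins to messenger RNAs with a matching site, mostly in the 3′ untranslated region, and lower the amount or the translation of those messages. The bases that pair most strictly are the seed, bases 2 to 8 of the mature microRNA. miR-150 is abundant in mature resting lymphocytes and falls when T cells are activated. Its best known target is Myb, a transcription factor of lymphocyte progenitors. The comparison sets both engineered genotypes against each other at the stage when T cells primed by the immunization are present.

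Mir150 lies on chromosome 7. Sites of the 5′ arm of miR-150 were the ones planned for comparison, and the sequence of that arm is not shown. The seed of the 3′ arm was used for no comparison of targets. The sequence of the 3′ arm is shown because Mir150 is the gene that defines the groups, with the seed in capitals (RefSeq, GRCm38.p6, chr7:45121798-45121819, plus strand):
mmu-miR-150-3p: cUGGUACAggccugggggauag

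Total counts ran from 9800746 to 49489134 in the KO libraries and from 11652606 to 25723483 in the KI libraries. Genes annotated as ribosomal RNA or known to collect such reads took 21.96% to 32.6% of counts in KO and 25.2% to 28.7% in KI libraries, and mitochondrial genes 0.616% to 0.859% in KO and 0.637% to 0.751% in KI. Replicate 3 of the KO group stood apart: it was the deepest library, held the highest ribosomal RNA share, and scored 88.8 on the first principal component, against -25.4 to -4.3 for the other libraries. Its limma quality weight was 0.144. All 11 listed T cell genes, most of them not particular to CD4 cells, were detected. Among them was Cd4 at 536 ± 36.1 CPM in KO and 491 ± 22.3 CPM in KI (SD, n = 4 each). Cd8a, which marks CD8 T cells, had 0.472 CPM over the KO and 0.661 CPM over the KI libraries. Cd8b1, on the same list of markers, was higher, with 10.6 CPM over the KO and 10.3 CPM over the KI libraries.

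The targeted gene was absent from every KO library. Mir150 (ENSMUSG00000065495, chromosome 7, 45121757 to 45121821 in mm10, a gene for the microRNA precursor between protein-coding genes) gave 0 counts in the 4 KO libraries. The KI libraries held 29.2, 15.01, 10.4 and 9.08 CPM (read counts scaled to the size of the library), from 105 to 619 counts per library. With a limit of 3 counts over the KO group, Mir150 was at least 506-fold lower in KO than in KI (edgeR quasi-likelihood adjusted p = 4.73e-09, Benjamini-Hochberg over all genes tested). WT libraries at day 7 held 16.3 ± 5.57 CPM (SD, n = 5), and KI libraries 15.9 ± 9.22 CPM (SD, n = 4). The KI and WT ranges overlapped. These total RNA libraries may read the precursor or a longer primary transcript, and the mature microRNA was not measured.

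Few genes passed the test between KO and KI cells, and most of those had small fold changes. With a threshold of 0.05 on the adjusted p, 55 of 14703 genes were called, which is 0.374%: 20 were higher in KO (0.136%) and 35 lower (0.238%). The genes called lower were led in number by 15 genes of ribosomal proteins, which are 42.9% of the lower calls and 0.544% of all genes tested. The genes called higher included Ccdc141, Dnah8, Gm45713, Purb, 2810001G20Rik, Cbl, Ift80, Atp10d, Osbpl8, Ccl5, Amigo2, Atf7ip, Sypl, Cdc14b, Raph1, Itgb1, Ahnak, Serinc3 and Rcn3. Apart from Mir150 and Ighg1, log2 fold changes ran from -4.50 (Pdgfb) to -0.26 (Rpl18) for genes lower in KO and from 0.22 (Atf7ip) to 2.43 (Ccl5) for genes higher in KO. Among the genes higher in KO, Ccl5, Ccdc141 and Rcn3 had a log2 fold change above 1. The median log2 fold change over all genes tested was -0.0053. Without adjustment, 1643 genes had a p under 0.05, 794 higher in KO (5.4%) and 849 lower (5.77%). The plot of fold change against level shows the calls among all genes tested.

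**Figure D1:**
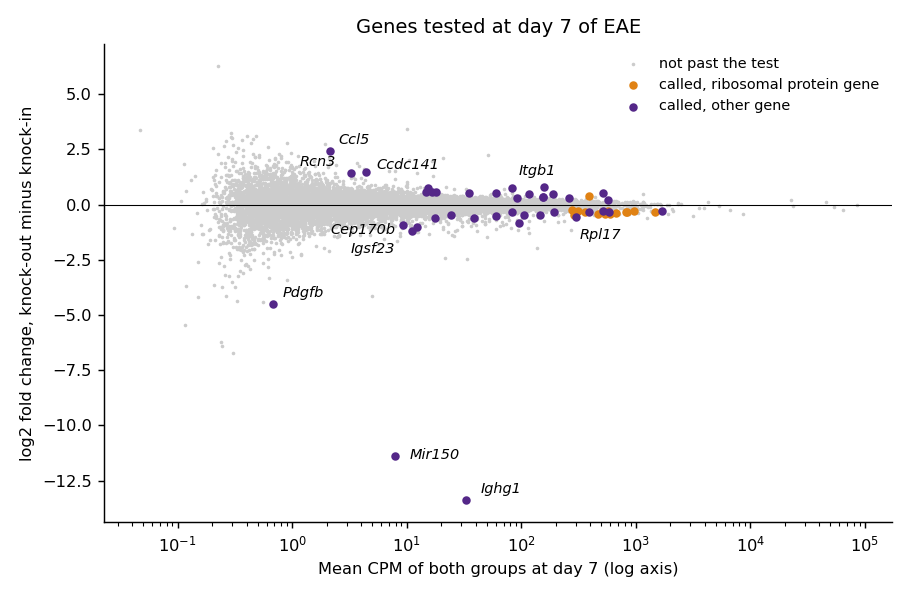
Each point is 1 of 14703 genes tested at day 7. The x axis is the mean CPM of both groups on a log axis and the y axis the log2 fold change, KO minus KI. Called ribosomal protein genes are orange and other called genes violet. Mir150 and Ighg1 lie far below the rest, and the ribosomal protein genes form a group of high level and small fold change.

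The calls rest in part on the spread estimated over all 25 libraries. With only the 8 KO and KI libraries of day 7 in the model, 1 gene was called, Mir150. Leaving out 1 library at a time gave 57, 35, 23 and 28 calls for KO replicates 1 to 4 and 20, 15, 45 and 21 calls for KI replicates 1 to 4. The genes called in all 8 such fits were Mir150, Rpl17, Cep170b, Igsf23, App, Rpl36 and Ccdc141. With only the groups compared, these 6 genes beside Mir150 had adjusted p from 0.0655 (Cep170b) to 0.16 (Ccdc141). None of the 55 genes changed direction in any alternative fit.

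Cep170b, related to a centrosomal protein that binds microtubules, fell in KO. Cep170b had 9.19, 7.81, 8.23 and 7.47 CPM in the KO libraries, against 16.2, 17.5, 14.7 and 17.1 CPM in the KI libraries. No KO library reached the lowest KI library (log2 fold change -0.996, SE 0.15, adjusted p = 0.00221). Igsf23 had 5.91, 5.08, 8.45 and 6.84 CPM in the KO libraries, against 12.1, 19.0, 16.004 and 15.04 CPM in the KI libraries. Igsf23, a little studied member of the immunoglobulin superfamily, was lower in each KO library than in any KI library (log2 fold change -1.22, SE 0.19, adjusted p = 0.00244). App had 32.7, 28.9, 32.6 and 27.5 CPM in the KO libraries, against 48.8, 48.7, 39.2 and 51.4 CPM in the KI libraries. App encodes the amyloid precursor protein, a membrane protein cut by secretases, and its groups also did not overlap (log2 fold change -0.62, SE 0.10, adjusted p = 0.00526). WT levels at day 7 were 11.7 ± 2.22 CPM for Cep170b, 13.99 ± 1.70 CPM for Igsf23 and 35.7 ± 2.08 CPM for App (SD, n = 5). For App the WT mean was the nearer to KO, and for Igsf23 the nearer to KI. In mm10, Cep170b lies at chromosome 12, 112720455 to 112746592, Igsf23 at chromosome 7, 19937305 to 19950756 and App at chromosome 16, 84949685 to 85173766.

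Ccdc141 was the called gene with the largest rise among those with a mean of at least 5 CPM in the higher group. Its product is a coiled-coil protein known from the migration of neurons. Ccdc141 had 5.66, 4.99, 9.49 and 5.58 CPM in the KO libraries, against 1.94, 2.54, 2.48 and 2.42 CPM in the KI libraries. KO replicate 3 was the highest, and the other KO libraries were still above each KI library (log2 fold change 1.47, SE 0.26, adjusted p = 0.00877). WT libraries held 2.81 ± 0.728 CPM (SD, n = 5), close to the KI level. The gene lies at chromosome 2, 77009902 to 77170636 in mm10.

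**Figure D2:**
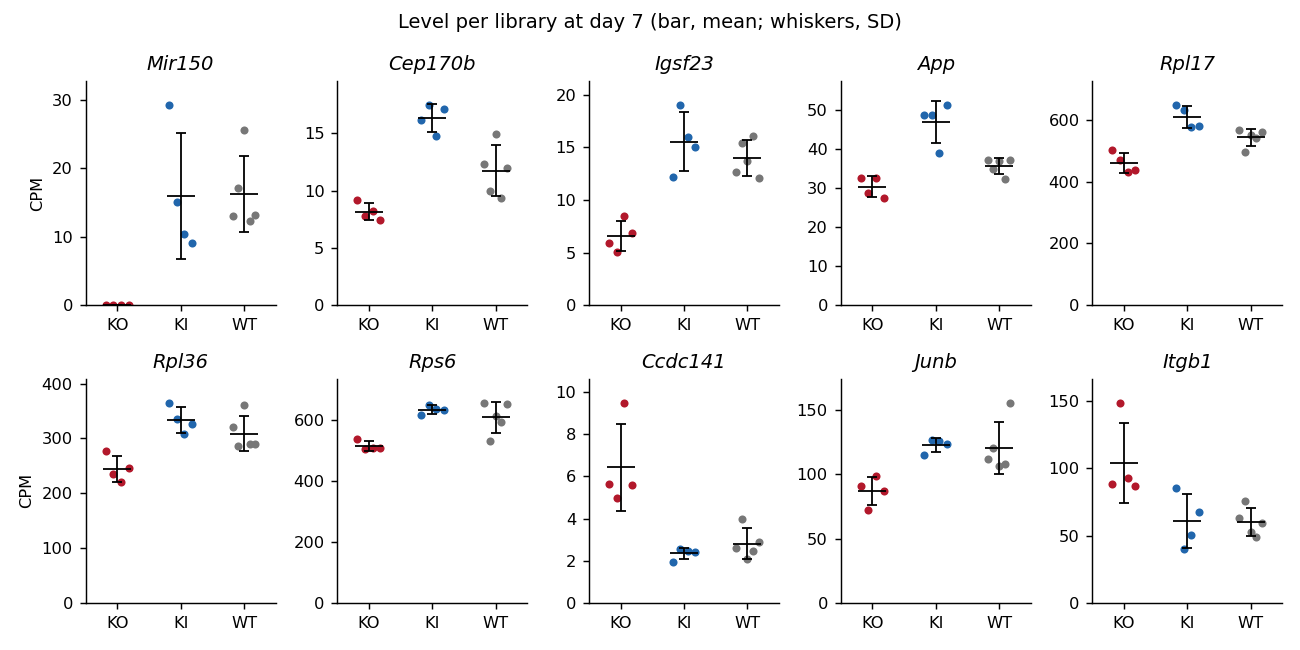
CPM per library of 10 genes at day 7 in 4 KO, 4 KI and 5 WT libraries, with mean and SD. Mir150 is at 0 in each KO library, and for the other genes shown no KO library lies within the range of the KI libraries.

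Nearly all genes of cytosolic ribosomal proteins had lower levels in KO cells. Ribosomal proteins form the small and large subunits of the ribosome together with ribosomal RNA, and their messages are known for a pyrimidine-rich 5′ end, the terminal oligopyrimidine (TOP) motif, through which their translation follows mTOR activity. Of 80 such genes tested, 78 had a negative log2 fold change, with a median of -0.27 beside -0.0053 over all genes. At the threshold, 15 fell and 1 rose (16 of 80, against 0.374% of all genes). Summed over the list, the KO libraries held 39332, 34308, 34278 and 34808 CPM, against 45574, 42489, 42148 and 44184 CPM in the KI libraries. The KO libraries were all below the KI libraries, and WT libraries at day 7 averaged 42511 ± 4179.8 CPM (SD, n = 5), with a range that overlapped both. This list was added with the results known, so its count describes and does not test.

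Rpl17, a protein of the large subunit, had the smallest p among them. Rpl17 had 502, 470.2, 432 and 437 CPM in the KO libraries, against 648, 633, 577 and 581 CPM in the KI libraries. The highest KO library was below the lowest KI library (log2 fold change -0.41, SE 0.060, adjusted p = 0.00221). Rpl36 had 276, 234, 220.2 and 247 CPM in the KO libraries, against 365, 336, 308 and 326 CPM in the KI libraries. Rpl36, of the large subunit, likewise did not overlap (log2 fold change -0.45, SE 0.075, adjusted p = 0.00526), and both genes stayed called without any 1 library. Rps6 had 539.7, 505, 510.3 and 511 CPM in the KO libraries, against 618, 650.5, 638 and 635 CPM in the KI libraries. Rps6 is the small-subunit protein phosphorylated by S6 kinases, and its KO libraries lay in a narrow range (log2 fold change -0.30, SE 0.059, adjusted p = 0.0162). Its call was lost in 5 of the 8 fits that left out 1 library (adjusted p up to 0.0616). The other ribosomal protein genes that fell included Rpl13, Rpl29, Rpl14, Rpl6, Rpl3, Rpl23a, Rpl12, Rpl4, Rpl18 and Rpl5, with log2 fold changes from -0.44 (Rpl29) to -0.26 (Rpl18). Among those not called, Rpl37 had the most negative log2 fold change of the list (-0.47, adjusted p = 0.162).

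The count of ribosomal protein genes called lower moved with the libraries and the tool. It was 19 without KO replicate 1 and 14 without KI replicate 3, and 8, 5 and 2 without KO replicates 2, 4 and 3, and 4, 5 and 4 without KI replicates 1, 2 and 4. The median of the list stayed between -0.33 and -0.25 over all alternatives. Across the list, 62 genes were lower with an unadjusted p under 0.05 (5.77% of all genes tested), and 37 were lower with no overlap between the groups (2.58% of all genes tested). In naive cells, whose libraries enter the day 7 test through the filter, the scaling and the spread, 74 of 80 were negative with a median of -0.18, and the sums were 35738, 35052, 32122 and 31491 CPM in KO, against 36832, 39028, 38413 and 36756 CPM in KI. Those sums did not overlap either, and 1 gene of the list was called, higher in KO. KO replicate 3, the deepest library with the highest ribosomal RNA share, held the lowest sum at day 7 (34278 CPM), close to KO replicates 2 and 4. Without it the median of the list was -0.26, and the part of depth and ribosomal RNA share in the result was not tested. Ribosomal protein genes have many processed pseudogenes, and how reads with several matches were counted is not given in the sources used here.

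Ribosomal protein messages are short, with a median annotated transcript length of 689 bases. Other protein-coding genes with transcripts under 700 bases had a median log2 fold change of -0.030 (788 genes), and the medians rose with length to 0.029 at 4000 bases and over (1932 genes). The difference in other short messages went the same way as in ribosomal protein genes and was much smaller. The plot of the ribosomal protein genes sets these medians beside the list and shows the sums by library.

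**Figure D3:**
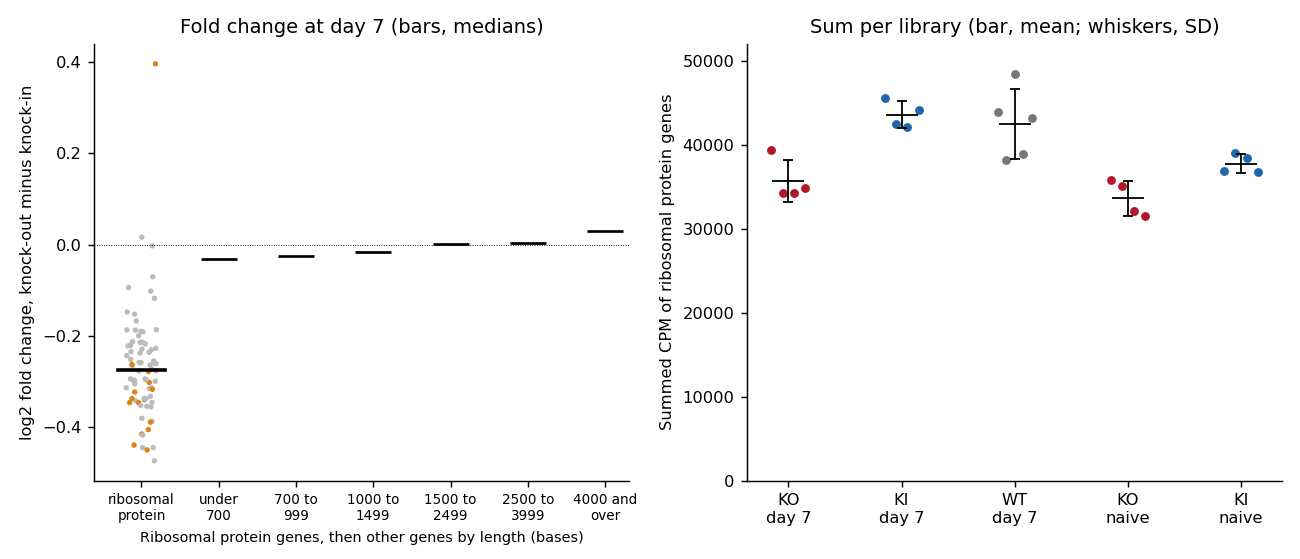
Left, log2 fold change (KO minus KI, day 7) of 80 ribosomal protein genes, orange where called, with their median, beside the medians of other protein-coding genes by transcript length. Right, summed CPM of these genes per library with mean and SD. KO libraries lie below KI libraries at day 7 and in naive cells.

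The stretches around the start of transcription are shown for 6 of the genes that fell. The motif named above is at the 5′ end of the message, which begins at that start. Each holds 20 bases before and 20 bases from the RefSeq start (GRCm38.p6), with the longest run of pyrimidines in capitals, and Rpl6 is shown as a gene without a long run:
Rps6 (chr4:86857348-86857387, - strand): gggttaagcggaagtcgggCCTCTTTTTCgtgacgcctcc
Rpl18 (chr7:45718051-45718090, + strand): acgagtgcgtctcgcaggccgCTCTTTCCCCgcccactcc
Rpl4 (chr9:64173367-64173406, + strand): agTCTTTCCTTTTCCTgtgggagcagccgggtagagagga
Rpl14 (chr9:120571497-120571536, + strand): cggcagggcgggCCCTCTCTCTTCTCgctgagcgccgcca
Rpl13 (chr8:123102330-123102369, + strand): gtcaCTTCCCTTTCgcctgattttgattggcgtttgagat
Rpl6 (chr5:121204481-121204520, + strand): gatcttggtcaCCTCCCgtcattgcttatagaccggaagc
Of 59 ribosomal protein genes with an entry, 29 (49.2%) had a pyrimidine run of at least 8 bases in these 40 bases on the transcribed strand. The share was 19.2% of 8850 other tested protein-coding genes and 18.4% of all 27025 genes in the table. Where a gene had several starts, the longest run counted. Runs before the start counted too, so these shares do not count the TOP motif. The marked runs of Rpl4, Rpl13 and Rpl6 lie wholly before the RefSeq start.

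Genes around the ribosome moved in the same direction where they were called. Rack1, a scaffold protein of the small subunit, fell (521 ± 24.2 CPM in KO and 653 ± 46.5 CPM in KI, SD, n = 4 each, log2 fold change -0.33, SE 0.065, adjusted p = 0.0162). Npm1, a nucleolar chaperone of ribosome assembly, fell as well (346 ± 31.7 CPM in KO and 441 ± 23.3 CPM in KI, log2 fold change -0.35, SE 0.071, adjusted p = 0.0184), the only call among 15 ribosome biogenesis genes (median -0.070). Among 44 genes of translation initiation and elongation factors, 31 were negative (median -0.089). This list too was added with the results known, so its counts describe and do not test. Of the 44, 4.55% were called lower, against 0.238% of all genes tested: 2 fell and none rose. They were Eef2, which moves the ribosome along the message (1513 ± 121 CPM in KO and 1849 ± 87.9 CPM in KI, log2 fold change -0.29, SE 0.059, adjusted p = 0.0186), and Eef1b2, an exchange factor of elongation (459 ± 29.8 CPM in KO and 566 ± 16.2 CPM in KI, log2 fold change -0.30, SE 0.064, adjusted p = 0.0274). Neither was called without KI replicate 1, 2 or 4 or without KO replicate 2, 3 or 4. Rack1 and Npm1 were each lost in 4 of the 8 fits that left out 1 library (adjusted p up to 0.0766 and 0.0967). Myc, a transcription factor that drives such genes, had 64.5 CPM in KO and 72.3 CPM in KI and was not called.

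Among the remaining genes that fell, Patj and Map3k9 were the clearest. Patj encodes a scaffold protein of tight junctions and cell polarity. Patj had 133, 124, 110.1 and 116 CPM in the KO libraries, against 164, 185, 156 and 171 CPM in the KI libraries, with no overlap (log2 fold change -0.48, SE 0.088, adjusted p = 0.011). Map3k9, a kinase upstream of JNK, averaged 6.31 ± 1.08 CPM in KO and 12.1 ± 1.92 CPM in KI (log2 fold change -0.95, SE 0.17, adjusted p = 0.011). Both lost their call without KI replicate 2 (adjusted p = 0.0517 and 0.0538). Hist1h1c, a linker histone gene, averaged 242 ± 28.5 CPM in KO and 361 ± 36.1 CPM in KI, and its call ended without KO replicate 3 or 4 or KI replicate 1 or 4 (log2 fold change -0.58, SE 0.12, adjusted p = 0.0193). Gpr183, the oxysterol receptor that positions lymphocytes in lymphoid tissue, averaged 49.3 ± 3.996 CPM in KO and 71.7 ± 11.1 CPM in KI (log2 fold change -0.54, SE 0.12, adjusted p = 0.0323). It was lost in 7 of the 8 fits that left out 1 library (adjusted p up to 0.18). Slc2a1, the glucose transporter GLUT1, averaged 20.3 ± 2.13 CPM in KO and 28.2 ± 1.76 CPM in KI (log2 fold change -0.48, SE 0.10, adjusted p = 0.0251), the only call among 18 genes of glycolysis and glucose uptake (median -0.093). It was not called without KO replicate 1 or 4 or KI replicate 1, 2 or 3. Pde3b, Cc2d1b and the predicted gene Gm16069 were also called lower, with log2 fold changes of -0.32, -0.34 and -0.60. Of the 8 fits that left out 1 library, Pde3b and Cc2d1b were each lost in 6 and Gm16069 in 2.

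The calls of Ighg1 and Pdgfb rested largely on single KI libraries. Ighg1, an immunoglobulin heavy chain gene of B cells and plasma cells, was at 0 in the KO libraries, and had 0.0472, 3.85, 0 and 259 CPM in the KI libraries. Nearly all of it came from KI replicate 4, which also held 198 CPM of the light chain gene Igkc, against 5.85 to 12.9 CPM in the other KI and 1.57 to 15.6 CPM in the KO libraries. In 6 of the 8 fits that left out 1 library Ighg1 was not called, and without KI replicate 4 its adjusted p was 0.289. Pdgfb, a growth factor gene, had 0, 0.188, 0.0664 and 0 CPM in KO, against 3.64, 0.308, 0.907 and 0.346 CPM in KI, and was not called without KI replicate 1 (adjusted p = 0.216) or without KO replicate 1, 3 or 4. Summed over 18 B cell markers, the KO libraries held 194, 208.96, 202.5 and 146 CPM, against 228, 171, 198 and 441 CPM in KI. Of the 18 tested, 17 were negative (median -1.03) and none was called. The median was -0.23 without KI replicate 4, -0.66 without KO replicate 1 and -1.91 without KO replicate 3. In RNA of bulk samples, fewer cells of a type and less RNA per cell cannot be told apart.

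Most genes of effector and memory T cells had higher means in KO cells. Of 16 tested, 14 had a positive log2 fold change (median 0.43). Itgb1 and Ahnak, 2 of the 16, rose past the threshold (12.5%, against 0.136% of all genes tested). Without KO replicate 2 the median was 0.27. Itgb1, the integrin beta 1 chain of the adhesion receptors of antigen-experienced T cells, was also the only call among 13 integrin and adhesion genes. Itgb1 had 88.2, 149, 92.9 and 87.3 CPM in the KO libraries, against 85.3, 40.4, 50.2 and 67.7 CPM in the KI libraries. KO replicate 2 was far above the rest, and the other KO libraries were only just above KI replicate 1 (log2 fold change 0.77, SE 0.17, adjusted p = 0.0347). Ahnak had 162, 292, 201.9 and 152 CPM in the KO libraries, against 134, 122, 98.0 and 111 CPM in the KI libraries. Ahnak, a very large scaffold protein involved in calcium signalling of T cells, again was highest in KO replicate 2 (log2 fold change 0.79, SE 0.18, adjusted p = 0.0354). Without KO replicate 2 the adjusted p was 0.143 for Itgb1 and 0.147 for Ahnak, and both calls also ended without KI replicate 2, 3 or 4 or KO replicate 3, and that of Ahnak without KI replicate 1.

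The sum of the effector and memory genes was 727, 1062, 780.0 and 736 CPM in the KO libraries, against 717, 611, 561 and 615 CPM in the KI libraries, and the groups did not overlap. The closest uncalled members were S100a10, an annexin partner (63.7 ± 7.59 CPM in KO and 45.1 ± 7.56 CPM in KI, log2 fold change 0.49, SE 0.12, adjusted p = 0.0672), and Anxa2, the annexin it binds (10.5 ± 5.76 CPM in KO and 3.60 ± 1.77 CPM in KI, log2 fold change 1.52, SE 0.44, adjusted p = 0.153). Cd44, the common marker of antigen-experienced cells, had 47.7 CPM in KO and 49.2 CPM in KI. In naive mice the same list summed to 919, 780.0, 883 and 909 CPM in KO, against 654, 663, 719.7 and 728 CPM in KI, and 15 of 16 members were positive, with none called. The 16 myeloid markers summed to 16.3, 13.2, 25.1 and 12.1 CPM in KO, against 6.94, 9.62, 10.6 and 8.73 CPM in KI, also without overlap. Of the 7 tested, 6 were positive, Cd14 had no count in either group, and their part in the result was not tested.

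Ccl5, a chemokine of effector and memory T cells, was the only call among 8 Th1 genes. Ccl5 had 4.26, 4.33, 4.09 and 1.63 CPM in the KO libraries, against 0.803, 1.001, 0.237 and 0.692 CPM in the KI libraries. KO replicate 4 was the lowest of its group and still above each KI library (log2 fold change 2.43, SE 0.52, adjusted p = 0.0274), but the call was lost in 7 of the 8 fits that left out 1 library (adjusted p up to 0.0998), staying only without KO replicate 4. Genes shared with cytotoxic cells were higher in KO without passing the test. Klrd1, a receptor chain of NK and memory T cells, averaged 4.804 ± 1.51 CPM in KO and 2.02 ± 0.302 CPM in KI (adjusted p = 0.0735), and Eomes, a transcription factor of cytotoxic and memory cells, 5.50 ± 0.445 CPM in KO and 2.44 ± 0.741 CPM in KI (adjusted p = 0.133). The whole list of markers of cytotoxic, NK and gamma-delta cells had 10 of 14 positive (median 0.51, with 0.24 to 0.88 as KO replicate 2 or 3 was left out and 0.33 without KO replicate 1), none called, and sums of 79.1, 67.4, 89.2 and 61.0 CPM in KO, against 63.1, 63.8, 59.2 and 63.7 CPM in KI, which overlapped. Cd8a was near 0 in both groups and Cd8b1 was not, at 10.6 CPM over the KO and 10.3 CPM over the KI libraries. Prf1, the perforin gene, with the highest CPM on the list, had 22.8 CPM in KO and 23.9 CPM in KI.

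The other genes that rose have no common list. Dnah8 encodes a heavy chain of axonemal dynein. Dnah8 had 626, 614, 539 and 654 CPM in the KO libraries, against 401, 401, 439.9 and 462 CPM in the KI libraries. Each KO library was above each KI library (log2 fold change 0.51, SE 0.094, adjusted p = 0.011), with an adjusted p of 0.0517 without KI replicate 2. Ift80, of intraflagellar transport, averaged 218.9 ± 17.8 CPM in KO and 158 ± 20.2 CPM in KI, Raph1, a binder of Ena/VASP proteins at the leading edge, 19.5 ± 3.63 CPM in KO and 11.3 ± 1.91 CPM in KI, and Amigo2, an adhesion protein, 41.4 ± 5.29 CPM in KO and 29.0 ± 2.58 CPM in KI. Cdc14b, a phosphatase, averaged 19.8 ± 3.04 CPM in KO and 13.4 ± 1.42 CPM in KI, Sypl, a synaptophysin-like membrane protein, 17.6 ± 2.30 CPM in KO and 11.7 ± 1.58 CPM in KI, Serinc3, a membrane protein that restricts retroviruses, 136 ± 22.5 CPM in KO and 97.9 ± 9.93 CPM in KI, and Osbpl8, a lipid transfer protein, 175 ± 12.9 CPM in KO and 138 ± 6.88 CPM in KI. Log2 fold changes of these 7 ran from 0.34 (Osbpl8) to 0.77 (Raph1), and each call was lost in at least 4 of the 8 fits that left out 1 library. Purb, a binder of single-stranded purine-rich DNA and RNA, rose with 172 ± 8.26 CPM in KO and 137 ± 8.37 CPM in KI, and Atf7ip, a cofactor of histone methylation, with 612 ± 22.9 CPM in KO and 527 ± 14.7 CPM in KI. Purb was lost in 4 and Atf7ip in 6 of the 8 fits that left out 1 library (adjusted p up to 0.0753 and 0.11).

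Early response genes, which are induced within minutes of stimulation and also by handling of cells, mostly had lower means in KO. Of 16, 14 were negative (median -0.24), and 2 fell past the threshold (12.5%, against 0.238% of all genes tested). The median was -0.14 without KO replicate 2, -0.15 without KI replicate 3 and -0.38 without KO replicate 3. Ppp1r15a, the stress-induced regulatory subunit of an eIF2 alpha phosphatase, lies 401 kb from Mir150. Ppp1r15a had 63.9, 53.1, 83.9 and 70.6 CPM in the KO libraries, against 93.9, 112, 161 and 124 CPM in the KI libraries. The groups did not overlap (log2 fold change -0.85, SE 0.18, adjusted p = 0.0224). Junb, an AP-1 transcription factor, also fell. Junb had 90.8, 72.5, 98.3 and 87.1 CPM in the KO libraries, against 115, 127, 126 and 124 CPM in the KI libraries. Its groups did not overlap either (log2 fold change -0.49, SE 0.11, adjusted p = 0.0354). Jun averaged 176 ± 42.3 CPM in KO and 296 ± 73.4 CPM in KI (adjusted p = 0.27) and Fos 52.1 ± 36.3 CPM in KO and 63.3 ± 30.3 CPM in KI (adjusted p = 0.881). Ppp1r15a was lost in 6 of the 8 fits that left out 1 library (adjusted p up to 0.0998), and Junb in 7 of the 8 fits that left out 1 library (adjusted p up to 0.121). The sums were 1096, 1003, 1441 and 1214 CPM in KO, against 1351, 1439.5, 1764 and 1474 CPM in KI, and overlapped. Heat shock and chaperone genes, which answer stress, were negative in 10 of 12 (median -0.20) with none called. That median was -0.10 without KO replicate 1, -0.040 without KI replicate 3 and -0.11 without KI replicate 4. In naive cells all 12 were negative (median -0.47), with 1 called. Their leading members at day 7 were Hsp90ab1 (1229 CPM in KO and 1510.0 CPM in KI) and Hspe1 (52.1 CPM in KO and 63.7 CPM in KI).

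**Figure D4:**
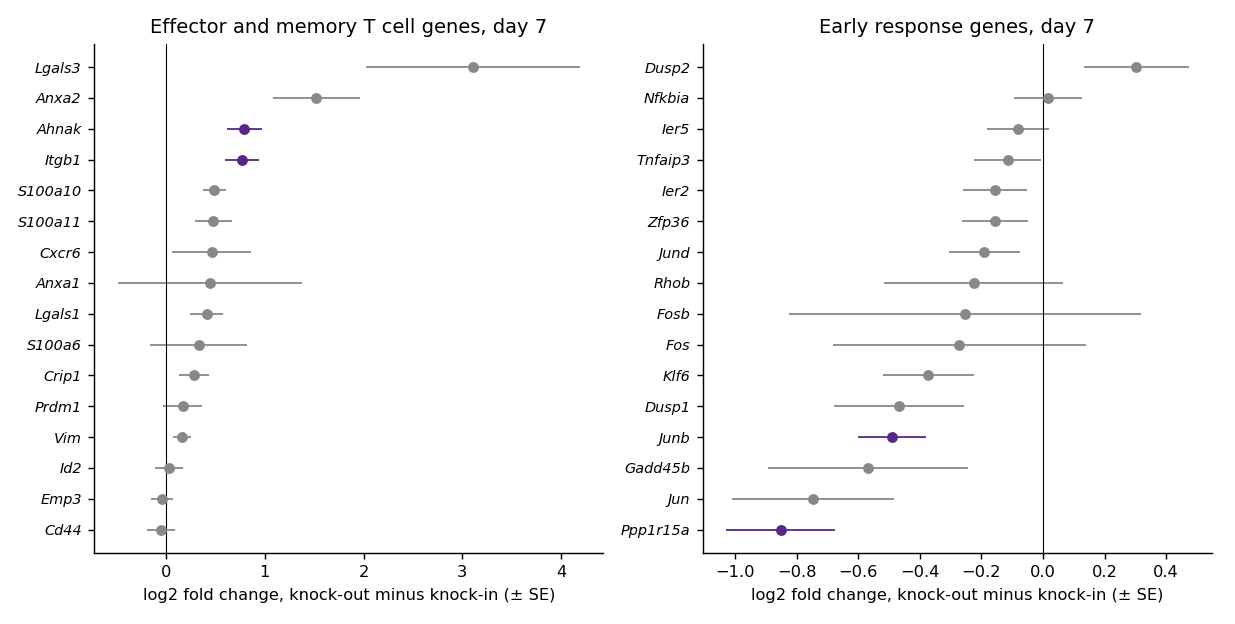
Log2 fold change (KO minus KI, day 7) with SE of 16 effector and memory genes (left) and 16 early response genes (right), violet where called. All but Cd44 and Emp3 are above 0 on the left, and all but Dusp2 and Nfkbia below 0 on the right.

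Genes reported as miR-150 targets were called in both directions. Of 17 listed, 15 were tested, 10 were positive and the median was 0.084. Cbl rose and Slc2a1 fell, which is 13.3% of the 15, against 0.374% called of all genes tested. Cbl had 269, 276, 298 and 295 CPM in the KO libraries, against 218.9, 232, 238 and 249.5 CPM in the KI libraries. Cbl is a ubiquitin ligase that limits T cell receptor signalling, and its lowest KO library was above its highest KI library (log2 fold change 0.28, SE 0.055, adjusted p = 0.0162). The call ended without KI replicate 1 or 2 or KO replicate 3 or 4. Myb had 44.5, 72.8, 51.9 and 48.6 CPM in the KO libraries, against 57.3, 32.1, 40.2 and 53.3 CPM in the KI libraries. The groups overlapped widely for Myb, and the difference was not past the test (log2 fold change 0.24, SE 0.18, adjusted p = 0.675). Egr2, a zinc finger factor induced by the T cell receptor, had 11.4 CPM in KO and 8.52 CPM in KI, Foxo1, a factor of T cell quiescence and homing, 359 CPM in KO and 334 CPM in KI, and Cxcr4, a chemokine receptor, 28.1 CPM in KO and 16.2 CPM in KI. Among the remaining members, Elk1, Zeb1, Pdcd4, P2rx7, Foxp1, Ccr6, Foxo4 and Arrb2 had adjusted p from 0.553 (Elk1) to 0.987 (Zeb1). The reports behind this list come from several cell types and species.

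Helper subset genes were not called, apart from Ccl5. Th17 genes, of the lineage most tied to EAE, had 6 of 11 negative (median -0.23). Its direction was not stable: the median ran from -0.48 without KO replicate 2 to 0.35 without KI replicate 1, and was -0.45 and -0.063 without KI replicates 2 and 4 and -0.13, -0.14 and -0.045 without KO replicates 1, 3 and 4. Il22, a Th17 cytokine, had 0.0426, 0.565, 0 and 0 CPM in KO, against 2.98, 0, 0.315 and 1.124 CPM in KI. Il21, of Th17 and follicular helper cells, had 0.340, 3.11, 0 and 0.125 CPM in KO, against 8.83, 0.385, 0.591 and 3.46 CPM in KI. Both were highest in KI replicates 1 and 4 and, within KO, in replicate 2. Maf, a factor of both subsets, showed the same libraries, with 19.8, 38.4, 28.8 and 14.8 CPM in KO and 58.2, 13.2, 13.6 and 33.5 CPM in KI. T follicular helper genes had 10 of 14 negative (median -0.22), among them Cd40lg (67.9 ± 4.74 CPM in KO and 81.4 ± 7.32 CPM in KI, adjusted p = 0.18), the T cell help ligand, while Tox had 88.4 CPM in KO and 73.7 CPM in KI and Slamf6 163 CPM in KO and 156 CPM in KI. The median of the follicular helper list was -0.029 and -0.13 without KI replicates 1 and 4, and -0.13 and -0.13 without KO replicates 3 and 4. Th2 genes had a median of 0.078, which ran from -0.15 without KI replicate 2 to 0.16 without KO replicate 1. Il4ra, the IL-4 receptor, had 249 CPM in KO and 281 CPM in KI. Gata3, the Th2 master factor, had 66.4 CPM in KO and 62.0 CPM in KI. Regulatory T cell genes had a median of -0.034, which ran from -0.12 without KO replicate 2 to 0.019 without KO replicate 3. Ikzf2 (Helios) had 97.4 CPM in KO and 68.0 CPM in KI, and Capg 15.2 CPM in KO and 19.9 CPM in KI.

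The same libraries were high in proliferation genes. Mki67, a marker of cycling cells, had 61.7, 246, 60.1 and 51.9 CPM in KO, against 205.6, 39.7, 45.1 and 123 CPM in KI, and 37 cell cycle genes summed to 602, 1135, 617 and 528 CPM in KO and 1019, 471, 496 and 771 CPM in KI. KO replicate 2 and KI replicates 1 and 4 were high, the groups overlapped, and none was called (median 0.079). The median of this list lay between -0.34 and 0.52 as single libraries were left out, so its direction was not stable. Cxcr5, the follicular homing receptor, followed the KI libraries, with 5.45, 13.7, 6.57 and 4.58 CPM in KO and 37.5, 5.23, 6.74 and 20.6 CPM in KI (adjusted p = 0.292). Ccr2, a receptor of inflammatory homing, had 3.79, 10.4, 7.28 and 2.20 CPM in KO and 6.09, 1.39, 1.10 and 2.16 CPM in KI (adjusted p = 0.344).

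Interferon and antigen presentation genes leaned to lower values in KO without calls. Interferon-induced GTPases, which attack pathogen vacuoles, had 13 of 14 negative (median -0.25). KI replicate 1 summed to 1483 CPM, against 880.0 to 959.8 CPM in the other KI libraries, and without it the median was -0.068. Gbp2 had 36.1, 40.5, 48.8 and 35.2 CPM in the KO libraries, against 106, 50.7, 48.4 and 51.7 CPM in the KI libraries. KI replicate 1 was far above the others, and the difference did not pass (adjusted p = 0.191). Gbp3 had 9.36, 24.6, 15.1 and 17.1 CPM in KO, against 45.9, 25.02, 17.98 and 27.2 CPM in KI (adjusted p = 0.18), and Gbp4, with the highest CPM of the list, 221.04 CPM in KO and 258 CPM in KI. MHC class I and antigen processing genes had 12 of 13 negative (median -0.18, and -0.11 without KI replicate 1), with the peptide transporter Tap2 at 101 ± 11.9 CPM in KO and 117 ± 3.41 CPM in KI (adjusted p = 0.259) and the immunoproteasome gene Psmb9 at 47.2 CPM in KO and 55.1 CPM in KI. Of 32 other interferon-stimulated genes, 21 were negative (median -0.030), with Isg20 at 6.28 CPM in KO and 9.69 CPM in KI and Oasl2 at 9.62 CPM in KO and 14.6 CPM in KI. In naive cells 30 of these 32 were positive (median 0.51), also with none called.

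On the lists of naive-state and signalling genes described next, no member passed the test, and the called genes Cbl and Map3k9, described above, are on none of these lists. Naive T cell genes had a median of 0.023. Klf3, a factor that restrains activation and the nearest to the threshold, averaged 212.7 ± 6.50 CPM in KO and 176 ± 6.54 CPM in KI (adjusted p = 0.0735), and Il7r, the IL-7 receptor chain that sustains naive cells, 247 ± 24.003 CPM in KO and 304 ± 24.002 CPM in KI (adjusted p = 0.15). Among genes of PI3 kinase, Akt and Foxo signalling (median 0.017), Pik3ca, a catalytic subunit, averaged 90.9 ± 9.33 CPM in KO and 75.2 ± 1.92 CPM in KI (adjusted p = 0.117), and Pik3cd, the catalytic subunit of lymphocytes, 564 ± 19.4 CPM in KO and 633 ± 47.4 CPM in KI (adjusted p = 0.334). Of the TGF-beta pathway (median 0.087), Tgfb1 had 92.6 CPM in KO and 79.6 CPM in KI and Tgfbr1 54.6 CPM in KO and 45.2 CPM in KI. T cell receptor signalling genes had a median of -0.010, with the factor Nfatc2 at 165 CPM in KO and 191 CPM in KI. Receptor-induced activation genes had a median of 0.15, which was 0.059 and 0.040 without KO replicates 1 and 4, with Egr1 at 53.5 CPM in KO and 43.9 CPM in KI and Cd5 at 251 CPM in KO and 220.7 CPM in KI. Cytokine receptor and JAK-STAT genes had a median of -0.025, and their feedback inhibitor Socs3 had 80.2 CPM in KO and 123 CPM in KI. Medians were -0.034 for NF-kappaB genes, -0.053 for the BCL2 family of cell death regulators, 0.031 for the microRNA machinery, 0.033 for inhibitory receptors and 0.078 for chemokine receptors.

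Metabolic lists gave no call beside Slc2a1. Cholesterol synthesis genes had 13 of 20 negative (median -0.094), with the sterol-sensing factor Srebf2 at 157 ± 8.53 CPM in KO and 181 ± 9.74 CPM in KI (adjusted p = 0.228). Respiratory chain genes encoded in the nucleus had a median of -0.030, with Cox5b at 30.3 CPM in KO and 35.6 CPM in KI, and genes encoded in mitochondria 0.012, with mt-Nd2 at 469.8 CPM in KO and 423 CPM in KI. Amino acid transporters had a median of -0.10, with Slc1a5 at 80.1 CPM in KO and 70.9 CPM in KI and Slc38a1 at 150.4 CPM in KO and 164 CPM in KI.

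Several called genes lie beside the engineered locus. Chromosome 7 held 9 of the 55 calls among 1014 genes tested, and 6 of those, Mir150 included, lay within 1000 kb of Mir150 among 72 tested (8.33%). Elsewhere on chromosome 7, 3 of 942 were called (0.318%), and 46 of 13689 on other chromosomes (0.336%).

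Rcn3, which encodes a calcium-binding protein of the secretory pathway and lies 29.5 kb from Mir150, had 6.47, 3.20, 6.44 and 2.57 CPM in KO, against 1.51, 1.77, 1.73 and 2.16 CPM in KI. It rose at day 7 (log2 fold change 1.41, SE 0.33, adjusted p = 0.0488) and in naive cells, with a log2 fold change of 1.72 (adjusted p = 0.0202), and WT libraries held 2.01 ± 0.801 CPM (SD, n = 5). The day 7 call was lost in 6 of the 8 fits that left out 1 library (adjusted p up to 0.193). Gm45713 (45125922 to 45136231) rose too (log2 fold change 0.52, SE 0.10, adjusted p = 0.011), but it overlaps Rpl13a (45125558 to 45128761) on the same strand, so its counts cannot be told apart from those of Rpl13a with certainty. Rpl13a itself had 1059 CPM in KO and 1264 CPM in KI and was not called. Ppp1r15a, described above, and Rpl18, 594 kb away, fell.

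**Figure D5:**
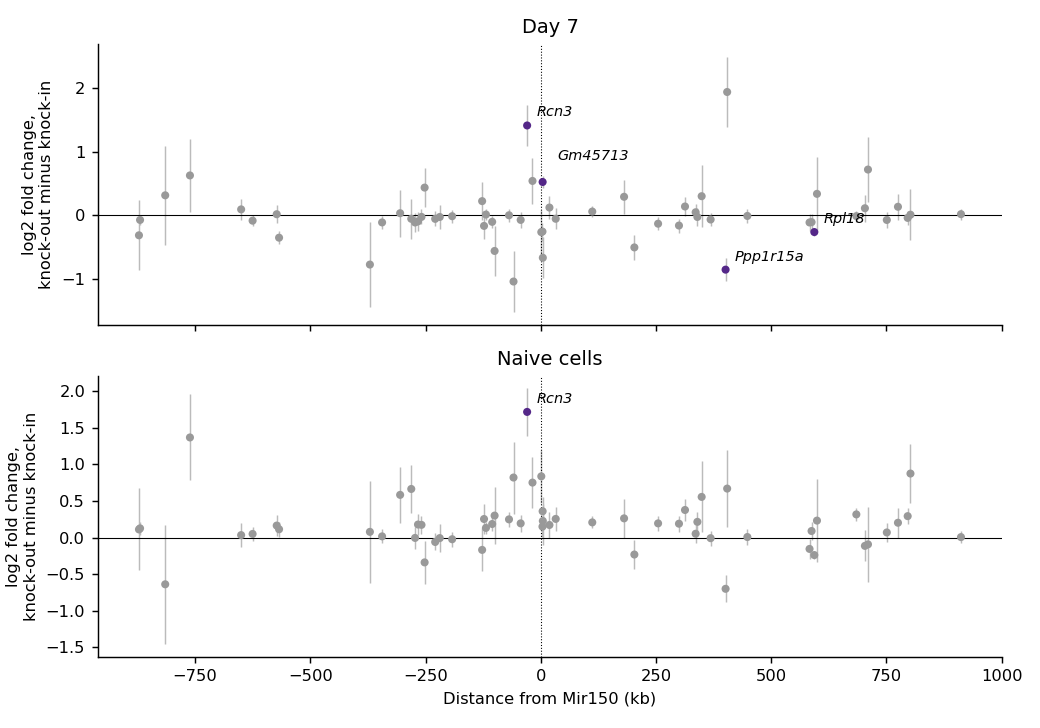
Log2 fold change (KO minus KI) with SE of genes within 1000 kb of Mir150 at day 7 (top) and in naive cells (bottom), by distance in kb. The genes shown had a day 7 mean of at least 1 CPM in either group, Mir150 is not drawn, and called genes are violet. Rcn3 is called at both stages.

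The same genotypes were compared in naive cells. The naive libraries set no day 7 mean, but they share the filter and the estimate of spread with the day 7 test. There 24 genes were called (0.163%), 15 higher (0.102%) and 9 lower in KO (0.0612%). Of the 55 genes called at day 7, 51 had the same sign in naive cells, against 51.8% of all genes tested, and 5 were called at both stages, Mir150, Cep170b, Igsf23 and Rcn3 among them. They are 9.09% of the day 7 calls and 20.8% of the naive calls. Igsf23 had a log2 fold change of -1.26 (adjusted p = 0.00137) and Cep170b of -0.71 (adjusted p = 0.0418) in naive cells. The day 7 calls with the opposite sign there were Gm16069, Atf7ip, Cc2d1b and Ighg1. Rpl36, clear at day 7, had a naive log2 fold change of -0.030. The test of the difference between the stages called no gene (edgeR, with 1096 at an unadjusted p under 0.05). limma voom also called none and DESeq2 called 2, Cc2d1b and the light chain segment Igkv8-30.

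WT levels lay between those of KO and KI for 52 of the 55 called genes (94.5%), against 39.8% of all genes tested. The exceptions were Mir150, Pde3b and Itgb1. The called genes were chosen for a gap between KO and KI, so these shares are a description and not a test. In 54 of the 55 genes, all but Ighg1, the KO and KI libraries did not overlap, against 712 of all genes tested (4.84%), of which 333 were higher in KO (2.26%).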

How the data were processed

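RNA of sorted CD4 T cells was sequenced as paired reads from stranded total RNA libraries (SMARTer Pico, Takara), per the labels' protocols. The authors deposited raw read counts per gene for 25 libraries. The submitters' processing notes name mm10 and DESeq2. The aligner, counter and strand setting are not given in the sources used here. Gene names came from GENCODE (45229 of 46078 IDs matched). Common BCV was 0.210, log2 CPM correlated at 0.937 or more among the 8 libraries, and no libraries of a group agreed within sampling noise (chi-square per degree of freedom at least 5.01).

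Counts were filtered (filterByExpr, minimum count 10, total 15), scaled by TMM and fitted with edgeR 4.0.16 (R 4.3.3) quasi-likelihood over all 25 libraries with a mean per group. Tests were two-sided, adjusted by Benjamini-Hochberg over 14703 genes at 0.05. Fold changes are KO minus KI, and CPM use TMM library sizes. DESeq2 1.42.0, limma 3.58.1 voom with library weights, another scaling, other filters, only the compared groups, library number terms and leaving out libraries were tried. The fit was tested on simulated data. The labels give no shared replicate numbers, so nothing was paired.

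Named genes were Mir150, Myb, up to 12 called genes per direction with the largest fold change (at least 5 CPM, no overlap of the groups, no predicted genes), and for each list up to 4 called members or else the 2 with the smallest p and the 1 with the highest mean. Other called genes, and members of lists named beyond these, were chosen after their values were seen. Some genes that the rule names are not reported here. All members and lists were chosen with earlier results of these data known. Intervals and limits on counts of 0 cover counting error only.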

Additional observations from a re-analysis of the deposited data

Results flagged for a closer look

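Of 234 groups of 4 libraries examined (the genes named by rule, in KO and in KI at day 7), 17 held 1 library whose gap to the nearest of the others took up nearly the whole range of its group (Dixon's test at the 95% level). Chance flags about 1 in 20 groups. KO replicate 2 was marked in 6 genes, KO replicate 3 and KI replicates 1, 2 and 4 in 2 each, and KO replicates 1 and 4 and KI replicate 3 in 1 each. No explanation was weighed.

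KO replicate 1 stood apart in Hbb-bs at 0.0426 CPM (others 0). KO replicate 2 stood apart in Itgb1 at 149 CPM (others 87.3 to 92.9), Ikzf2 at 147 CPM (others 75.6 to 86.6) and Il22 at 0.565 CPM (others 0 to 0.0426). It also stood apart in Capg at 22.5 CPM (others 11.7 to 13.3), Il21 at 3.11 CPM (others 0 to 0.340) and Mki67 at 246 CPM (others 51.9 to 61.7). KO replicate 3 stood apart in Ccdc141 at 9.49 CPM (others 4.99 to 5.66) and Pik3cd at 593 CPM (others 551 to 557). KO replicate 4 stood apart in Ccl5 at 1.63 CPM (others 4.09 to 4.33). KI replicate 1 stood apart in Gbp2 at 106 CPM (others 48.4 to 51.7) and S1pr1 at 292 CPM (others 329 to 331). KI replicate 2 stood apart in Cd5 at 256 CPM (others 205.7 to 212.3) and Nfkb1 at 227 CPM (others 243 to 245). KI replicate 3 stood apart in Slc38a1 at 152 CPM (others 167 to 169). KI replicate 4 stood apart in Eomes at 3.54 CPM (others 2.001 to 2.22) and Igkc at 198 CPM (others 5.85 to 12.9).

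Ccdc141, Ccl5 and Itgb1 are the called genes among these, and the fits without these libraries are given with the genes in the text above. Hbb-bs and Il22 rest on very few reads in the KO group.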

How the results depend on the processing

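The 55 calls at day 7 became 56 with RLE scaling, 49 with limma voom, 66 with the stricter filter, 63 without mitochondrial, ribosomal RNA and haemoglobin genes, 63 with library number as a covariate and 57 with sets of libraries as a factor. DESeq2 called 137 (59 higher, 78 lower) and kept 53 of the 55, edgeR without a filter on low counts called 404 (112 higher, 292 lower), and the fit on only the groups compared called 1. No called gene changed sign in any of these or without any library. Without the filter more genes entered the test, and in the fit on the groups compared the spread came from fewer libraries; otherwise the cause was not tested. Leaving out 1 library gave 15 to 57 calls. Ribosomal protein genes called lower, 15 in the report, numbered 30 by DESeq2, 48 without a filter, 0 with only the groups compared and 2 to 19 without 1 library.

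Naive cells, with 24 calls, gave 111 by DESeq2, 137 by limma voom, 269 without a filter, 37 with the stricter filter and 6 to 50 without 1 library. The difference between the stages gave 0 calls by edgeR, 2 by DESeq2, 241 without a filter and 0 by limma voom. Genes that were not called could turn sign. Zeb1 was at 0.029 by limma voom, and Mki67 at -0.086 by limma voom, -0.0056 with the stricter filter, -0.0055 without mitochondrial, ribosomal RNA and haemoglobin genes and -0.0038 with library number. Without 1 library, log2 fold changes ran from -2.86 to 0.082 for Igkc, -0.020 to 0.16 for Gata3, -0.31 to 0.10 for P2rx7, -0.48 to 0.35 for Maf, -0.028 to 0.086 for Foxp1, -0.064 to 0.16 for Slamf6, -0.017 to 0.044 for S1pr1, -0.082 to 0.017 for Ly6e. They also ran from -0.0034 to 0.044 for Atp5a1, -0.053 to 0.0073 for Ikbkb, -0.30 to 0.11 for Prf1, -0.031 to 0.0057 for Jak1, -0.083 to 0.047 for H2-K1, -1.38 to 0.30 for Cdh5, -0.031 to 0.022 for Tgfbr2, -0.036 to 0.027 for Zeb1, -0.11 to 0.071 for mt-Co1, -0.84 to 0.59 for Mki67.

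No paired analysis was possible because the labels give no replicate numbers that groups share. The planned comparison of genes with sites of the 5' arm of miR-150 was not run, since the sequence of that arm was not found in the reference used here. An alternative that removed the genes of a list gave no median for it. How far depth limits the calls was not tested.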
